A study of Oryctolagus cuniculus with 10 samples.

Results

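Among 12244 rabbit genes whose mean over 10 libraries reached 1 RPKM (reads per kilobase of gene, scaled to the size of the library), 64 were at least 2 lower on the log2(RPKM + 1) scale, about 4-fold, in the chondrogenic pellet than in the expanded cells of every one of 5 substrates. These 64 genes are described here. They are 0.523% of the genes tested, and the whole table lists 29587. The cells were infrapatellar fat pad derived stem cells (IPFSCs) of New Zealand White rabbits, stromal cells from the pad of fat behind the ligament below the kneecap. They were expanded on plastic dishes or on a matrix from which the cells had been removed (decellularized extracellular matrix, dECM), laid down by human adipose stem cells (ASC), dermal fibroblasts (DF), synovium-derived stem cells (SDSC) or urine stem cells (USC). Each of the 5 substrates gave 1 library of expanded cells and 1 library of pellets cultured for 21 days in chondrogenic induction medium. All pellets received that medium, so pellet culture and medium cannot be told apart. Human cells served only to make the matrices, and no group was replicated. The labels give no animal, passage or age, and do not say whether cells were pooled.

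In a pellet culture, cells are spun together into a small aggregate, and growth factors in the medium push them from a spreading, dividing state in a flat culture towards rounded cells that build cartilage matrix. Genes of the flat culture state are known to decline during this switch. Since RNA was measured in bulk, fewer cells that express a gene and less of its RNA per cell cannot be told apart. The table lists genes by Ensembl identifier only. None of the 38822 genes in the available name table (RefSeq, assembly mOryCun1.1) carried one of these identifiers, so the 64 genes are given without names, functions or sequences, the labelled cell type was not checked against its markers, and lists of pathway genes were not used.

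The genes were chosen by the 5 pellet minus cell differences themselves, so everything said of the size of the fall is a description without a test. Because 1 RPKM was added before taking logarithms, a gene needs at least 3 RPKM in each cell library to qualify. Of the tested genes, 9270 reached that level, and the 64 are 0.69% of them. No gap in the values marked the limit. The last 3 genes inside it had a smallest fall of -2.02, -2.02 and -2.03 in their weakest substrate, and the first 3 outside had -1.996, -1.98 and -1.96. Within 0.1 of the limit lay 10 genes inside and 7 outside. A further 58 genes met the limit in 4 of the 5 substrates. Of these, 27 fell short after plastic, 13 after USC dECM, 12 after SDSC dECM, 4 after ASC dECM and 2 after DF dECM. Taken singly, the ASC, DF, plastic, USC and SDSC pairs had 300, 288, 269, 205 and 157 genes at or under the limit, so the SDSC pair supplied the fewest candidates.

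**Figure D1:**
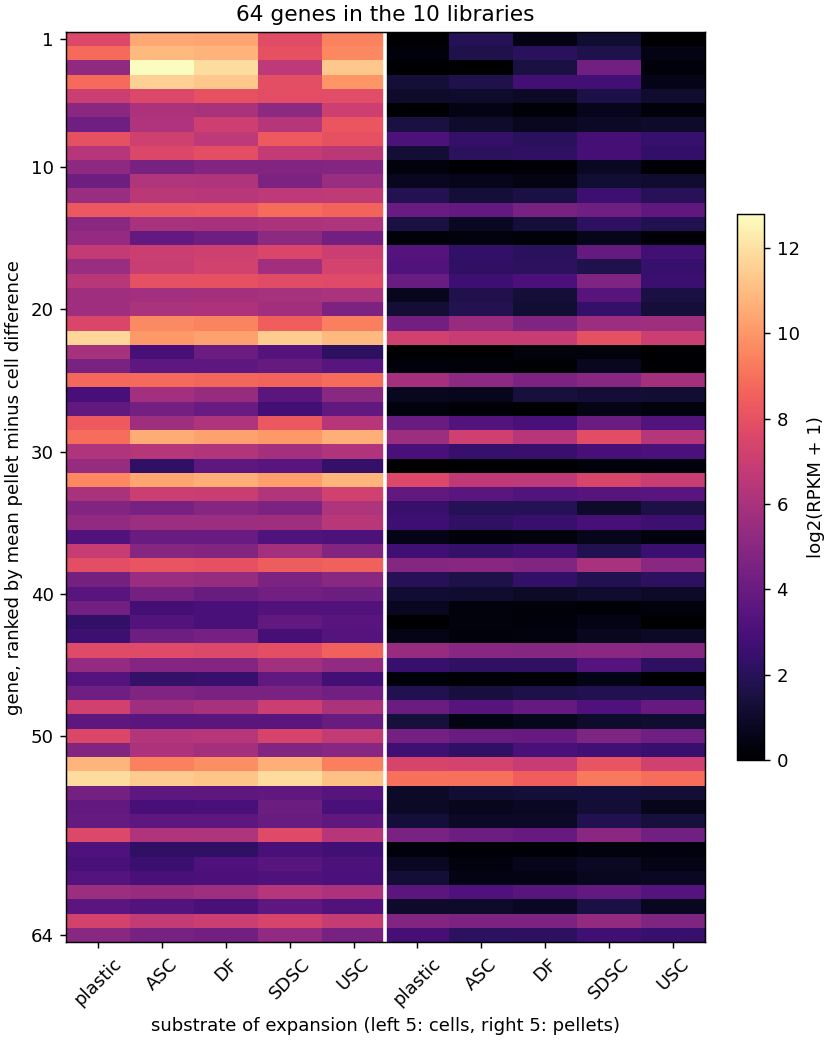
Level of the 64 genes (rows, ranked by the mean pellet minus cell difference, largest fall at the top) in the 10 libraries (columns, cells left of the white line and pellets right of it), as log2(RPKM + 1). Each row is darker on the right in every substrate, and rows with a bright right side are genes that kept a high level in pellets.

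The 64 genes ranged widely in abundance in the cells. The mean over the 5 cell libraries ran from 5.70 to 2954 RPKM with a median of 58.2 RPKM, against a median of 11.98 RPKM for all tested genes and 18.2 RPKM for the 9270 that reached 3 RPKM in each cell library. There were 8 genes under 10 RPKM, 30 from 10 to 100 RPKM, 18 from 100 to 1000 RPKM and 8 above. In cells 8 of the 64 were among the 100 most abundant genes, and in pellets none was. In the pellets the mean ran from 0.0859 to 485 RPKM with a median of 2.97 RPKM. For all 64 the lowest cell library lay above the highest pellet library, which held for 13.6% of all tested genes and is nearly fixed by the rule. The gap was narrowest in 1 gene whose lowest cell library was only 1.92 times its highest pellet library.

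Together the 64 genes held 2.80% of the summed RPKM in plastic cells, 4.39% in ASC dECM cells, 3.79% in DF dECM cells, 2.95% in SDSC dECM cells and 3.11% in USC dECM cells. In pellets the shares were 0.270% after plastic, 0.242% after ASC dECM, 0.191% after DF dECM, 0.385% after SDSC dECM and 0.258% after USC dECM. The cell shares did not overlap with the pellet shares, which is nearly fixed by the rule. A few genes carried these sums: the 8 most abundant in cells accounted for 67.5% to 75.8% of the cell shares and for 72.3% to 76.7% of the pellet shares. Those ranked 2, 3 and 4 by their fall were among these 8 and held at most 18.6 RPKM in any pellet. Fewer than 8 genes therefore carried most of the pellet sums.

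Most of the 64 were lower in pellets rather than absent. Only 14 were under 1 RPKM in each of the 5 pellets, while 33 were at 1 RPKM or more in each, 13 at 10 RPKM or more and 3 at 100 RPKM or more. The amount left, the pellet level in percent of the cells of the same substrate, had a median over substrates that was under 1% for 10 genes, under 5% for 30 genes and 10% or more for 18 genes. Its median over the 64 genes was 7.26% and its highest value 21.1%. By substrate the median amount left was 9.04% for plastic, 4.51% for ASC dECM, 5.27% for DF dECM, 8.03% for SDSC dECM and 5.88% for USC dECM. On the log2 scale the median fall was -3.15, -3.39, -3.54, -2.90 and -3.30 in the same order. The weakest fall of a gene was found on plastic in 24 genes and on SDSC dECM in 20, and the largest on SDSC dECM in only 4.

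**Figure D2:**
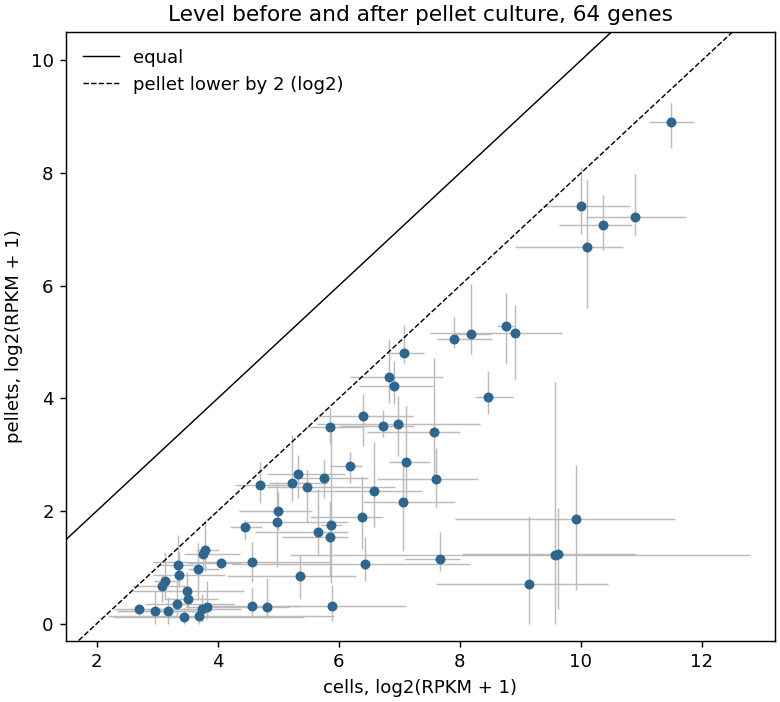
Mean level of each of the 64 genes in the 5 cell libraries (horizontal axis) and the 5 pellet libraries (vertical axis), both as log2(RPKM + 1), with grey lines from the lowest to the highest library. The 4 points at the lower right are the 4 genes with mean differences of -8.44 to -8.06, and the single point at the upper right is the most abundant gene, with 350 to 602 RPKM left in pellets.

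Averaged over substrates, the difference was -4 or lower in 20 genes, between -4 and -3 in 19 and above -3 in 25, with a median of -3.25 and extremes of -8.44 and -2.24. The SD of the 5 differences of a gene had a median of 0.54 over the 64 genes, from 0.17 to 4.403.

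With 1 RPKM added, the 4 genes ranked 1 to 4 by the mean fall stood apart. Their mean differences were -8.44, -8.37, -8.35 and -8.06, before a step to -6.53 for the gene ranked 5. The size of such a fall depends on the RPKM added, since the pellet levels were low. With 5 RPKM added the genes ranked 1 and 2 had -6.63 and -6.92, the reverse order, and with 0.1 RPKM -10.29 and -9.33. ENSOCUG00000022646, at rank 1, was at 194 RPKM on plastic, 1397 on ASC dECM, 1371 on DF dECM, 219 on SDSC dECM and 707 on USC dECM in cells. In pellets it was at 2.77 RPKM after ASC dECM (16 reads), 0.402 after DF dECM (3 reads) and 1.22 after SDSC dECM (9 reads). The plastic and USC dECM pellets held none of its reads, and there 3 reads, the limit that a count of 0 allows, would be 0.443 and 0.407 RPKM. The ASC dECM and DF dECM cells were the high libraries, and plastic and SDSC dECM cells the low ones.

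ENSOCUG00000008632, at rank 2, had the same high and low libraries. In cells it was at 446 RPKM on plastic, 1918 on ASC dECM, 1720 on DF dECM, 260 on SDSC dECM and 780 on USC dECM. In pellets it was at 0.206, 2.30, 3.18, 2.27 and 0.379 RPKM in that order, from 2 to 34 reads. Its mean difference was -8.37 with an SD of 1.18 over the 5 substrates.

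ENSOCUG00000027368, at rank 3, varied most among substrates. In cells it was at 35.8 RPKM on plastic, 7095 on ASC dECM, 3838 on DF dECM, 96.6 on SDSC dECM and 2565 on USC dECM, a 198-fold range. In pellets it had no reads after plastic and ASC dECM, 1.86 RPKM after DF dECM, 18.6 RPKM after SDSC dECM (89 reads) and 0.210 RPKM after USC dECM (1 read). The ASC dECM pellet was therefore at least 8840.3-fold lower than the ASC dECM cells, taking 3 reads per library as the limit. The SDSC dECM pair was the exception with 19.3% left, a difference of -2.31. The gene at rank 4 followed the pattern of the leading pair, with 444 RPKM on plastic, 3003 on ASC dECM, 2581 on DF dECM, 241 on SDSC dECM and 996 on USC dECM in cells, and 0.508 to 6.03 RPKM in pellets.

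**Figure D3:**
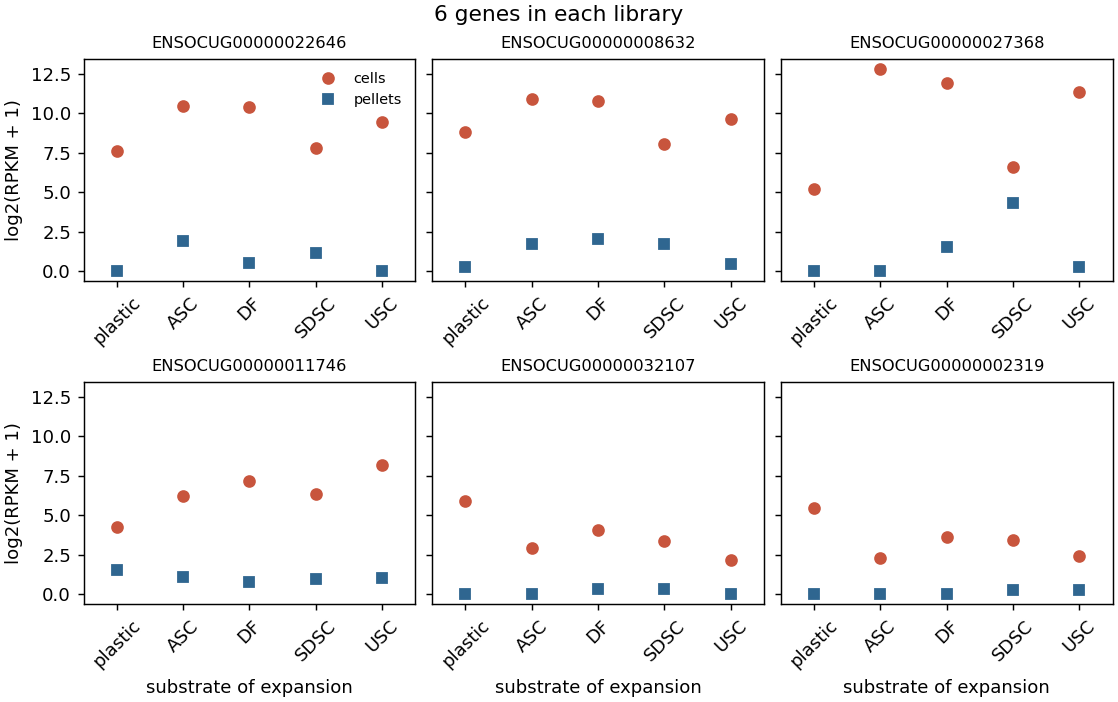
Level of 6 of the genes as log2(RPKM + 1) in each library, by substrate of expansion (horizontal axis), with cells as circles and pellets as squares. The upper row holds the genes ranked 1 to 3 by their fall, with circles highest on ASC and DF dECM; the lower row holds the gene most clearly higher on dECM and the pair lower on dECM than on plastic.

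At the other end, 3 genes fell by the rule and yet stayed abundant. The most abundant of the 64 was at 3692 RPKM on plastic, 2718 on ASC dECM, 2389 on DF dECM, 3729 on SDSC dECM and 2241 on USC dECM in cells. In its pellets 496, 501, 350, 602 and 477 RPKM were left, a mean difference of -2.59 with an SD of 0.26. Another was at 1089 to 3421 RPKM in cells and at 119 to 254 RPKM in pellets, and the last at 664 to 1787 RPKM in cells and at 120 to 276 RPKM in pellets. All 3 were higher in plastic and SDSC dECM cells than in the other cells, and highest in the SDSC dECM pellet. Among the 14 genes under 1 RPKM in each pellet, the mean level in cells was 5.70 to 67.3 RPKM. Its median was 12.4 RPKM, against 58.2 RPKM for all 64.

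The levels on the 5 substrates were then described within the cells and within the pellets. Every library entered the rule, so shares of all tested genes are given beside these counts as background and are not independent of how the genes were chosen. Over the 5 cell libraries, 40 of the 64 genes (62.5%) spanned at least 1 on the log2 scale, against 14.7% of all tested genes and 9.91% of the genes with at least 3 RPKM in each cell library. A span of at least 2 was found in 13 genes (20.3%), against 3.36% of all tested genes. The median span was 1.22 in the 64 genes and 0.49 in all tested genes. Without the plastic library, 29 genes spanned at least 1. At the other extreme 24 of the 64 genes spanned less than 1. One of them was at 435 RPKM on plastic, 458 on ASC dECM, 428 on DF dECM, 390 on SDSC dECM and 473 on USC dECM in cells, and at 23.6 to 57.2 RPKM in pellets.

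Each dECM cell library was set against the plastic cells, with 1 library on each side and no test. ASC dECM was higher by at least 1 on the log2 scale in 18 of the 64 genes (4.84% of all tested genes) and lower in 11 (4.66%). For DF dECM, 16 genes lay above plastic by that much (4.45%) and 12 below (3.65%). For USC dECM, 18 lay above (3.53%) and 10 below (4.07%), and for SDSC dECM, 7 lay above (1.36%) and 4 below (2.43%). These 4 comparisons share the plastic library. Genes past 1 were found in both directions on each dECM, and the median difference of the 64 lay between 0.09 and 0.19 in each of the 4. ASC and DF dECM cells both lay above plastic and SDSC dECM cells in 22 genes (26.8% of all tested genes) and both below them in 23 (31.4%), shares of 34.4% and 35.9% that lie near the background. With a gap of at least 1 the counts were 10 (2.07%) and 5 (1.14%). All 4 dECM libraries lay above plastic in 26 genes (22.7%), 4 of them by at least 1 (0.776%), and all lay below it in 15 (32.3%), 3 of them by at least 1 (1.27%).

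**Figure D4:**
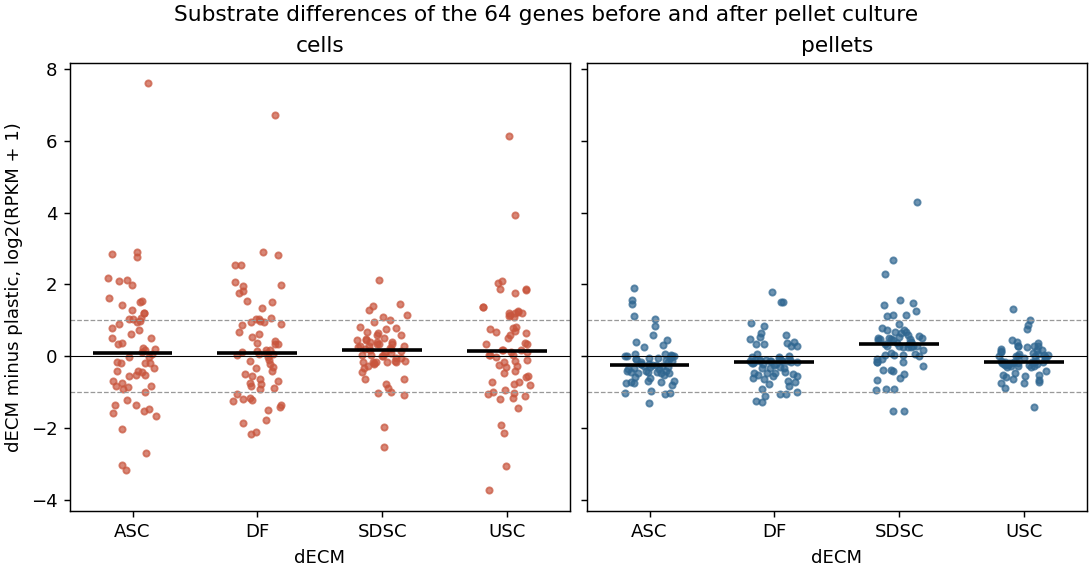
Difference of each dECM library from the plastic library of the same stage for the 64 genes (points), in log2(RPKM + 1), for cells on the left and pellets on the right, with black bars for the median and dashed lines at 1 and -1. Points spread widely on both sides in cells and less in pellets, where the SDSC median of 0.35 lay above 0 and the other 3 medians lay between -0.24 and -0.15.

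In a limma model over all 10 libraries, with a mean for each stage and for plastic and dECM, 4 of the 64 genes passed an adjusted p of 0.05 between the 4 dECMs and plastic in cells (Benjamini-Hochberg over all tested genes), 1 higher on dECM and 3 lower. Of all tested genes 1.80% passed. These calls rest on a spread shared with the pellets, where the rule had placed the 64 genes low: from the 5 cell libraries alone (an alternative chosen after seeing the data), none of the 64 was called and none in the table. An unadjusted p under 0.05 was found in 23 of the 64 with the shared spread (35.9%, against 16.5% of all tested genes) and in 18 from the cells alone (28.1%, against 14.02%). ENSOCUG00000011746 was higher, at 17.9 RPKM on plastic against 74.3 on ASC dECM, 141 on DF dECM, 81.1 on SDSC dECM and 285 on USC dECM, 2.73 higher on the log2 scale (SE 0.58; limma, adjusted p = 0.04997). All dECM libraries lay above plastic, and USC dECM was the highest. In pellets this gene was at 0.700 to 1.898 RPKM.

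ENSOCUG00000032107 was lower on dECM, at 59.4 RPKM on plastic against 6.48 on ASC dECM, 15.7 on DF dECM, 9.42 on SDSC dECM and 3.56 on USC dECM, a change of -2.78 on the log2 scale (SE 0.53; limma, adjusted p = 0.0379). ENSOCUG00000002319 was lower too, at 42.1 RPKM on plastic against 3.82, 11.5, 9.96 and 4.24 RPKM on ASC, DF, SDSC and USC dECM, a change of -2.49 on the log2 scale (SE 0.48; limma, adjusted p = 0.0380). Plastic was the only high cell library in both. Both are short gene models of 198 and 243 bases, and their dECM values rest on 13 to 49 reads. In the pellets each had at most 1 read per library. The third gene lower on dECM was at 18.4 RPKM on plastic and at up to 8.73 RPKM on the dECMs, a change of -1.18 on the log2 scale (SE 0.21; limma, adjusted p = 0.0329). ENSOCUG00000027368 had the largest difference, 5.46 with an SE of 2.13, and was not called (limma, adjusted p = 0.239). Its SDSC dECM cells lay near plastic, and the other 3 dECM libraries far above.

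The single plastic library leaves no residual of its own, so plastic was assumed to vary like the dECMs, and the p-values measure the spread between matrices rather than between cultures. With the ASC pair or the USC pair left out, no gene of the 64 was called and none in the whole table. With the DF pair left out 2 of the 64 were called, and with the SDSC pair left out 26 of the 64 (12 higher, 14 lower), among 1263 genes in all. With 0.1 RPKM added in place of 1, none of the 64 was called. The call of ENSOCUG00000011746 lay at the threshold and was lost under median-of-ratios scaling (limma, adjusted p = 0.0506), and over its alternatives the adjusted p ran from 0.0165 to 0.237. Those of ENSOCUG00000032107 and ENSOCUG00000002319 ran from 0.00810 to 0.208 and from 0.0102 to 0.208, the upper values from the cells alone.

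Over the 5 pellet libraries, a span of at least 1 was found in 24 of the 64 genes (37.5%), against 9.92% of all tested genes, and the median span was 0.77. The 13 genes with at least 10 RPKM in each pellet had median spans of 1.20 in cells and 1.09 in pellets, and the 14 under 1 RPKM in each pellet had 1.47 and 0.51. The limma spread for pellets was shared with the cells, where 62.5% of the 64 genes spanned at least 1. A share of low p-values near the background therefore does not show that the 64 resemble it. From the pellet libraries alone, an alternative chosen after seeing the data, that share lay further above the background. No gene of the 64 was called between the 4 dECMs and plastic in pellets by limma, and 5 had an unadjusted p under 0.05 (7.81%, against 7.33% of all tested genes, none of which was called). With limma-voom on the recovered reads there was no call either, and 7 of the 64 had an unadjusted p under 0.05 (10.9%, against 7.64% of all tested genes).

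Against the plastic pellet, 10 of the 64 genes were at least 1 higher in the SDSC dECM pellet (2.67% of all tested genes) and 2 at least 1 lower (2.95%). In the ASC dECM pellet 5 were higher (1.48%) and 4 lower (0.776%), in the DF dECM pellet 3 were higher (1.54%) and 5 lower (0.849%), and in the USC dECM pellet 2 were higher (0.792%) and 1 lower (0.449%). All 4 dECM pellets lay above plastic in 8 genes (14.8%) and below it in 15 (37.8%), and none of the 64 did so by at least 1 in either direction (0.253% and 0.0490%). The SDSC dECM pellet had the most genes well above plastic.

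The SDSC dECM pellet held the highest level of the 5 pellets in 37 of the 64 genes (57.8%), against 22.0% of all tested genes. Of the 46 genes with at least 10 reads in each pellet it was the highest in 27. In the table as a whole the SDSC dECM pellet was more often the lowest, in 38.7% of tested genes, and it was the lowest in 5 of the 64. Its sequencing depth, 19184172 reads in genes, lay near the top of the range of the pellets (15012222 to 19393763). It had 5 of the 64 genes under 10 reads, against 12 or 13 in the other pellets. Whether depth plays a part in these counts was not tested. ASC and DF dECM pellets both lay below plastic and SDSC dECM pellets in 32 genes (50.0%), against 14.7% of all tested genes, and both above them in 1 gene (12.5%). With a gap of at least 1 this held for 1 gene below (0.0408%) and none above (0.0898%). The plastic pellet was the highest in 15 genes (37.8%) and the ASC dECM pellet in 1 (10.2%), and the DF dECM pellet was the lowest in 20 (8.95%). In cells, SDSC dECM was the highest library in 15 of the 64 genes (11.4% of all tested genes) and the lowest in 5 (18.8%), and ASC dECM was the highest in 14 (17.1%).

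**Figure D5:**
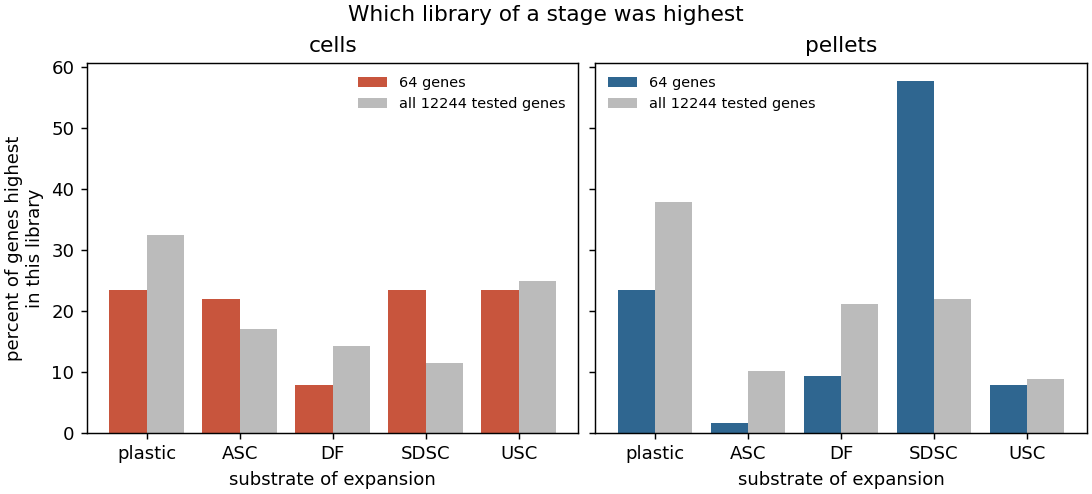
Percent of genes whose highest level among the 5 libraries of a stage was in the library named on the horizontal axis, for the 64 genes (coloured bars) and all tested genes (grey bars), in cells on the left and pellets on the right. In pellets the SDSC library was the highest in 57.8% of the 64 genes and in 22.0% of all tested genes.

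The SDSC dECM pellet was also set against the other 4 pellets in the limma model, a comparison added after the data were seen. None of the 64 genes was called, and 9 (14.1%) had an unadjusted p under 0.05, against 13.8% of all tested genes, of which 0.188% were called. The median difference of the 64 was 0.43 on the log2 scale and that of all tested genes -0.08. The smallest adjusted p among the 64 belonged to a gene at 9.56 RPKM in the SDSC dECM pellet and at 0.65 to 2.39 RPKM in the others, 2.05 higher on the log2 scale (SE 0.32; limma, adjusted p = 0.0545). One abundant gene was at 64.6 RPKM there and at 26.6 to 32.7 RPKM in the other pellets, 1.11 higher on the log2 scale (SE 0.22; limma, adjusted p = 0.0907). This comparison rests on 1 library without a replicate and on a spread shared with the cells. There the median span was 1.22 in the 64 genes and 0.49 in all tested genes. A share of low p-values near the background therefore does not show that the SDSC dECM pellet is ordinary for the 64.

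Substrate differences seen in cells were followed into the pellets. Of the 18 genes higher on ASC dECM than on plastic by at least 1 in cells, 7 were higher in pellets too (38.9%), against 47.4% of such genes in the whole table. For DF dECM it was 10 of 16 (62.5% against 53.6%), for SDSC dECM 6 of 7 (85.7% against 55.7%) and for USC dECM 9 of 18 (50.0% against 57.6%). Of the genes lower than plastic in cells, 8 of 11 stayed lower for ASC dECM (72.7% against 51.8%), 10 of 12 for DF dECM (83.3% against 57.3%), 2 of 4 for SDSC dECM (50.0% against 49.8%) and 7 of 10 for USC dECM (70.0% against 57.0%). Equal pellet levels were counted as not carried over, as for ENSOCUG00000027368 (ASC dECM) and ENSOCUG00000022646 (USC dECM), without reads on both sides. ENSOCUG00000032107 and ENSOCUG00000002319 were lower by at least 1 on each dECM in cells. Their plastic pellet held no reads, so no dECM pellet could be lower. For SDSC dECM they were the genes that did not stay lower. Of all 64 genes, 16 lay above plastic in the ASC dECM pellet and 16 in the DF dECM pellet. In the SDSC dECM pellet 47 did, and in the USC dECM pellet 23. Most thus lay at or below plastic after ASC, DF and USC dECM, and above it after SDSC dECM. High shares in those directions therefore do not show that a cell difference persisted. Genes higher in cells on ASC, DF and USC dECM were higher in pellets more often than the 64 as a whole. Persistence was not tested. The 4 comparisons share the plastic libraries, and the numbers are small.

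The matrix of urine stem cells, named in the series title, was compared with the remaining 3 matrices across cells and pellets. limma called none of the 64 and none in the table, and 3 of the 64 (4.69%) had an unadjusted p under 0.05, against 1.89% of all tested genes. limma-voom made no call, with 7 of the 64 at an unadjusted p under 0.05 (10.9%, against 1.86%). In both fits the cells and pellets of a substrate entered as separate libraries without pairing, so the 1 USC matrix counted at both stages. The spread held in part the variation of pellet minus cell differences among substrates, values that the rule had used. The SD of the 5 differences of a gene had a median of 0.54 in the 64 genes and 0.28 in all tested genes. These shares therefore do not show how the 64 compare with the background. Over both stages, the gene with the clearest rise on dECM, ENSOCUG00000011746, was higher on USC dECM by 0.84 on the log2 scale (SE 0.65; limma, adjusted p = 0.999995). In cells it was at 285 RPKM on USC dECM, against 74.3 to 141 RPKM on the other dECMs. In pellets it was at 1.03 RPKM after USC dECM, against 1.10 after ASC dECM, 0.700 after DF dECM and 0.918 after SDSC dECM.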

How the data were processed

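The authors deposited 1 table of log2 values for 10 libraries; the submitters' processing notes name Subread, featureCounts and the genome build OryCun2.0. For tool versions, annotation release and strand setting: not given in the sources used here. Each value is log2(RPKM + 1) with 0.0001 added. Undone, the RPKM of all 21536 genes above 0 were whole multiples of 1 read (within 0.001 read), and the library total that made gene lengths whole numbers of bases (within 0.0001, 98.5% of genes, all 64 members) gave the reads and lengths quoted. Totals were 14021696 to 19828548 reads in genes.

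Members were taken by the rule in the opening; they and all lists and tests were chosen with earlier results of these data known. Groups come from sample titles, and p-values measure the spread between substrates. limma 3.58.1 in R 4.3.3 was run on log2(RPKM + 1) for all 12244 genes, with a variance prior that follows level, two-sided, with Benjamini-Hochberg adjustment at 0.05, and was tested on simulated data. Identifiers were printed for the largest 2 falls and for the 2 highest and 2 lowest dECM minus plastic differences in cells; other genes are given by rank or level, some chosen after their values were seen. Alternatives were other scalings, pseudocounts, filters and limits, limma-voom on the recovered reads, 1 stage alone, and each substrate left out. Python 3.11.15 with pandas 2.3.3 and matplotlib 3.10.9 was used for counts and figures.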

Additional observations from a re-analysis of the deposited data

Results flagged for a closer look

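In 22 sets of 5 values, the highest or lowest was compared with its nearest neighbour by Dixon's criterion. It stood apart in 3. Chance gives about 1 in 20 for values not chosen beforehand. That rate does not apply to the first pair, which had been picked for their low dECM levels against plastic. Nor does it apply to the last gene, whose pellet values entered the rule and were 0 in some libraries. ENSOCUG00000032107 was at 59.4 RPKM in plastic cells and at 3.56 to 15.7 RPKM in the 4 dECM cell libraries. ENSOCUG00000002319 was at 42.1 RPKM in plastic cells and at 3.82 to 11.5 RPKM in the other cells. ENSOCUG00000027368 was at 18.6 RPKM in the SDSC dECM pellet, and the other pellets lay between 0 and 1.86 RPKM.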

How the results depend on the processing

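The number of genes that met the rule depended on the pseudocount and the limit: 138 with 0.1 RPKM added (all 64 among them), 28 with 5 RPKM, 128 at a limit of -1.5 and 17 at -3. Median-of-ratios scaling moved the median change of all tested genes from 0.18 to 0.01 and gave 77 genes, all 64 among them, and quantile normalization gave 71, 60 of them shared. With a substrate left out the rule gave 66 to 91 genes. For dECM against plastic in cells, 4 of the 64 were called, with 0 when 0.1 RPKM was added, 1 without a filter, 0 from the cells alone, and 0 to 26 with a substrate left out; in the whole table the calls were 221, and 55 with 0.1 RPKM added, 0 from the cells alone and 0 to 1263 with a substrate left out. ENSOCUG00000027368 was called without the SDSC libraries (log2 difference 6.81, limma, adjusted p = 0.000953), and its adjusted p was 0.239 to 0.467 otherwise. Without a filter on low values, the table had 104 calls for dECM against plastic in pellets and 2 for USC dECM against the others, none among the 64. For the SDSC dECM pellet against the others, the table had 23 calls and 12 with median-of-ratios scaling. The cause of these shifts was not tested. The count of genes highest in the SDSC dECM pellet was 37, and 42 with median-of-ratios scaling; that of genes with ASC and DF dECM pellets below plastic and SDSC dECM pellets was 32 and 31. The genes that spanned at least 1 in cells numbered 40, and 29 to 40 with a cell library left out. These last 3 counts, the SDSC dECM pellet comparison and the fits of 1 stage alone were chosen after seeing the data. In pellets the depth leaves 5 to 13 of the 64 genes with under 10 reads per library.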

Other observations

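The gene lengths implied by the RPKM were not used by the rule. Over the 64 genes the median was 2111.5 bases (quartiles 1247 and 3507), against 1802 bases (969 and 3015) for all tested genes, and 15 genes (23.4%) were under 1000 bases, against 25.7%. The 4 genes with the largest falls were 385, 551, 249 and 308 bases long, and the 13 genes that spanned at least 2 among the cell libraries had a median of 657 bases, 7 of them under 1000 bases. The 24 genes that spanned less than 1 had a median of 2573 bases, 4 of them under 1000 bases. In the whole table the 412 genes with a span of at least 2 had a median of 1490 bases, and 33.7% were under 1000 bases. The 10446 with a span under 1 had a median of 1862.5 bases, and 23.7% were under 1000 bases. Of the 13 genes with a span of at least 2, 8 had ASC and DF dECM cells both above plastic and SDSC dECM cells, and 2 had them both below. No share among the 412 tested genes with such a span is given, so these counts do not show a trait of the 64. These groups of genes were chosen after their values were seen.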
